A study of Mus musculus with 16 samples.

Results

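The genes examined here handle cholesterol and lipid in macrophages: Nr1h3, Srebf1, Srebf2, Abca1, Abcg1, Apoe, Lpl and Ch25h. Members were the H3K27ac peaks within 50 kb of any annotated transcription start site of these 8 genes in the mouse mm10 genome, in each of 4 deposited peak lists. Overlapping peaks of the 4 lists were merged into regions, and 106 of the 43131 regions near a protein-coding gene, and of 55218 regions in all, lay within that distance of a member gene. Abca1 had 19 regions, Abcg1 13, Nr1h3 6, Apoe 16, Lpl 23, Srebf1 4, Srebf2 6 and Ch25h 19.

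The study asked whether the catalytic activity of PARP-1, an enzyme that adds ADP-ribose chains to proteins, takes part in the macrophage response to interferon gamma (IFNγ). Chromatin immunoprecipitation and sequencing (ChIP-seq) for H3K27ac, acetylation of histone H3 at lysine 27, was done on primary bone marrow-derived macrophages (BMDMs) grown from C57Bl6 mice of 8 to 12 weeks, differentiated in medium conditioned by L-929 cells. Cells were left untreated (Control), given 100 ng/mL IFNγ for 1 h, given the PARP inhibitor PJ34 at 20 µM, or given PJ34 1 h before IFNγ (IFNγ+PJ34, also written as the list with both). The 16 libraries were 8 ChIP libraries and 8 inputs, 2 of each for every condition, and the authors combined both replicates of a condition into 1 peak list. All groups thus share the strain and the culture, PJ34 is the only inhibitor in these lists, and neither the PARP-1 null genotype nor another PARP inhibitor is part of them. How many animals gave the cells of a replicate was not stated in the sources used here.

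Macrophages take up cholesterol from dying cells and lipoproteins and must export it or store it as esters. Excess sterol yields oxysterols, which activate the liver X receptors (LXRs), and LXRs raise the genes for cholesterol export and for fatty acid synthesis, while low sterol releases the SREBP proteins, which raise sterol synthesis and uptake. H3K27ac marks active promoters and enhancers, so a peak near a gene reports the state of its regulatory DNA and not its transcript level.

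LXRs bind as dimers with RXR to direct repeats of a short sequence, so the member regions were searched for a repeat of this type, 2 copies of GGTNA on the same strand with 5 bases between them. The search found 10 such sites in 9 regions near 6 of the 8 genes, and they are printed in full because each stands in a region near a member gene and can be followed across the conditions. Each sequence of 27 bases is read from the mm10 genome 5′ to 3′ on the strand of the match, the capitals mark the repeat, and none overlaps an annotated exon.
Srebf1 intron (chr11:60210633-60210659, plus strand): cgctggGGTTACTGGCGGTCActgtcg
Abca1 intron, distal (chr4:53157529-53157555, minus strand): tggaggGGTCACTGGTGGTGActtggg
Abca1 intron, proximal (chr4:53158867-53158893, plus strand): cgatggGGTTACTTGCGGTCAttcggc
Abca1 promoter (chr4:53159942-53159968, plus strand): cgccggGGTTACTACCGGTCAaacgct
Abcg1 intron, nearest the start (chr17:31058875-31058901, minus strand): gcaagaGGTAACTGTCGGTCAaatcct
Abcg1 intron, proximal (chr17:31073480-31073506, plus strand): cgccggGGTTACTATCGGTCAatgctc
Abcg1 intron, distal (chr17:31075700-31075726, plus strand): gagagaGGTTAATGTAGGTCAtcttgg
Apoe downstream (chr7:19693513-19693539, minus strand): ccagggGGTCACTGTCGGTCAatgaca
Lpl intron (chr8:68881184-68881210, minus strand): tagggaGGTCACCACCGGTCActacag
Ch25h upstream (chr19:34475424-34475450, minus strand): tttagcGGTGATGGCGGGTGAactgtc

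A peak of the Control list covered 8 of these 10 sites, a peak of the IFNγ list 6, a peak of the PJ34 list 8 and a peak of the IFNγ+PJ34 list 8. In all 4 lists 4 sites were covered: the pair near the Abca1 start (at -0.06 and 1.01 kb from it), the Lpl site at 0.706 kb in the gene and the Abcg1 site at 18.0 kb in the gene. The Apoe site, 5.66 kb downstream of the start between Apoe and Apoc1, lay in a peak of the Control list and of no other list, at score percentile 62.7. The Ch25h site, just upstream of the start (at -0.273 kb), lay in a peak in Control, PJ34 and IFNγ+PJ34 but not in IFNγ. The distal Abca1 intron site, at 2.35 kb, was covered in PJ34 alone, and the Srebf1 site, at 9.96 kb in the gene, was covered in every list but PJ34. The Abcg1 site at 1.2 kb was covered in every list but IFNγ, and the Abcg1 site at 15.8 kb in every list but Control. In the list that did not cover the site, the regions around these Abcg1 sites and the Srebf1 site still held a peak elsewhere. Its percentile was 84.4 at the Abcg1 site at 1.2 kb, 19.9 at the one at 15.8 kb and 50.8 at Srebf1. These are matches of letters, and binding of a factor was not measured.

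The lists held 43533 peaks in Control, 40708 with IFNγ, 44090 with PJ34 and 42960 with both, with 52.6, 42.5, 47.9 and 44.1 Mb covered and a median peak width of 732, 647, 647 and 634 bp. The Control list was thus the broadest. In bulk chromatin, fewer acetylated cells and less acetylation per cell cannot be told apart. The files hold no read counts, so the depth of the libraries is unknown, and a region without a peak is one that did not reach the authors' threshold in both replicates. Peak scores were whole numbers from 10 to 1000 within each list, so a peak was placed by its score percentile in its own list (100 is the highest score), and a region took the percentile of its highest-scoring peak. Many low-scoring peaks share a score, so low percentiles take only a few values. With 1 list per condition there is no replicate spread: no difference below has a test, intervals are exact 95% Clopper-Pearson intervals that cover counting error only, and neighboring regions are not independent. A difference of 10 percentile points or more is used as a descriptive mark, beside the share of all regions near protein-coding genes that passed it.

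To check the cell type, markers were read at the start sites. All 10 macrophage markers had a start-site peak in all 4 lists, with Spi1, the lineage factor PU.1, at percentile 100.0 in Control, 99.9 with IFNγ, 99.8 with PJ34 and 97.2 with both. None of the 4 T cell, 4 fibroblast and 4 epithelial markers had one in any list. Of 4 B cell markers Ms4a1 had one (percentile 55.9, 10.4, 38.2 and 15.6 in the same order), of 4 neutrophil markers S100a8 had a weak one in IFNγ (4.5) and PJ34 (25.3), and of 3 plasmacytoid dendritic cell markers Tcf4 and Bst2 had strong ones. The defining plasmacytoid marker Siglech had none. The part of other cells in the results below was not tested.

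Near the 8 genes the lists held 97 peaks in Control, 72 with IFNγ, 88 with PJ34 and 90 with both. Of the 106 member regions, 44 were found in all 4 lists (41.5%, interval 32.0 to 51.5), against 43.0% of all regions near protein-coding genes. A further 24 regions were found in Control alone (22.6%, interval 15.1 to 31.8, against 11.4% of all regions), 1 in IFNγ alone (0.943% against 3.76%), 11 in PJ34 alone (10.4% against 8.46%) and 8 in IFNγ+PJ34 alone (7.55% against 9.18%). The Control-alone share stood above the background share, and 21 of those 24 regions lay at Lpl and Apoe. Regions found in 1 list were of low rank, with a median percentile of 15.4, while the regions found in all 4 lists had a median best percentile of 78.8. By annotation, 14 of 18 promoter regions, 14 of 39 intronic, 16 of 44 intergenic and none of 5 exonic regions were found in all 4 lists.

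At the start sites, 7 of the 8 genes had a peak within 1 kb in all 4 lists, against 47.7% of protein-coding genes, and Ch25h had one in 3 lists. Between IFNγ and Control, none of 7 member start-site peaks was higher in IFNγ by 10 points (3.67% of protein-coding genes) and 2 were lower (14.6%). Between PJ34 and Control, 1 of 8 was higher (6.63%) and 2 were lower (5.49%). Between IFNγ+PJ34 and IFNγ, 1 of 7 was higher (9.84%) and 1 was lower (15.0%), and between IFNγ+PJ34 and PJ34, 1 of 8 was higher (5.80%) and 2 were lower (27%). The genes past the mark were Apoe, Lpl and Ch25h among the lipid handlers and Srebf2 and Nr1h3 among the transcription factors, and they are taken up below.

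**Figure D1:**
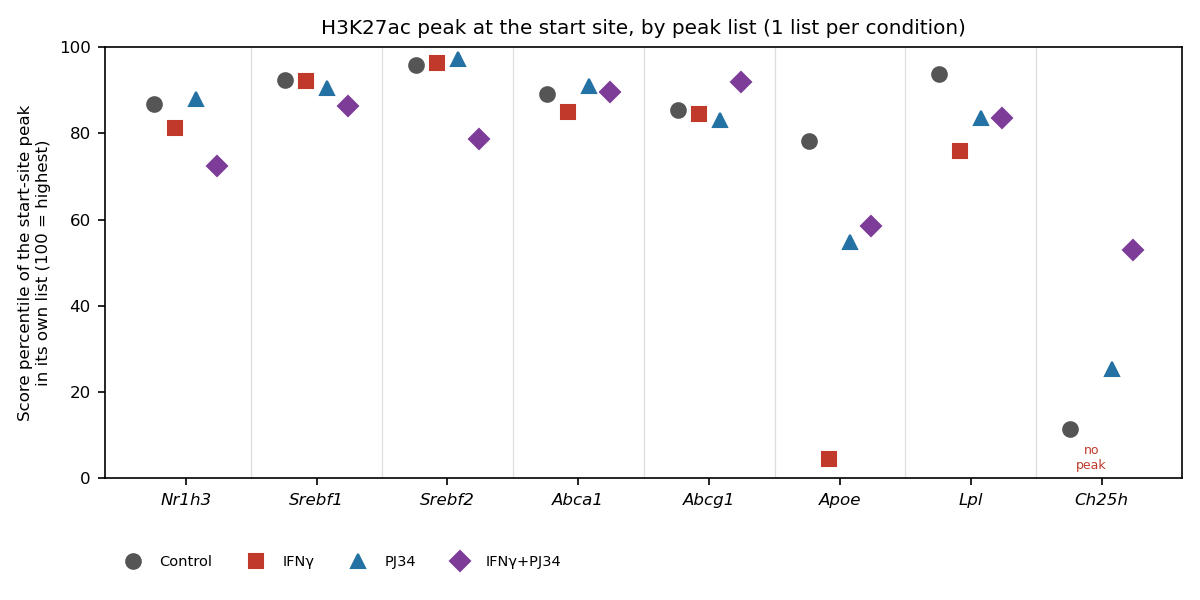
Score percentile (vertical axis, 0 to 100) of the highest H3K27ac peak within 1 kb of a start site of each of the 8 genes, with 1 point per peak list: Control, IFNγ, PJ34 and IFNγ+PJ34. Apoe is at 78.1 in Control and 4.5 in IFNγ, Srebf2 is at 78.7 in IFNγ+PJ34 against 95.8 to 97.3 in the other lists, and Ch25h has no start-site peak in IFNγ.

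Nr1h3 encodes LXRα, the sterol-sensing receptor itself (chr2:91184061-91202834, minus strand). Its start-site region, chr2:91193264-91198329, was at percentile 86.9 in Control, 81.2 with IFNγ, 88.0 with PJ34 and 72.5 with both, with fold enrichments of 26.3, 17.6, 26.2 and 14.3. The IFNγ+PJ34 value was thus the lowest of the 4, 15.5 points below PJ34 and 8.6 below IFNγ. The highest region near the gene covered the promoter of the neighboring Acp2, a lysosomal phosphatase, at 98.4, 96.2, 98.9 and 91.4 in the same order. A further region at the Madd promoter was at 94.1, 84.6, 95.7 and 84.0, and one at the Ddb2 promoter at 76.6, 78.6, 76.6 and 66.2. All 4 of these regions were found in every list. All 4 were lower in IFNγ+PJ34 than in PJ34 (median shift -11.1), against 12536 of 20642 regions near all protein-coding genes (median -3.0). All 4 were also lower than in IFNγ (median -6.7), against 10377 of 20618 regions (median -0.0). All 4 lie at a promoter or start site, and start-site peaks of all protein-coding genes had medians of -4.2 against PJ34 and -1.2 against IFNγ. The lower rank in IFNγ+PJ34 was thus shared by the neighboring promoters, and to a smaller extent by start sites in general. With the starts of the comprehensive annotation, which place the Acp2 promoter region at an Nr1h3 start, the start-site shift against PJ34 was -7.5.

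Srebf1 encodes SREBP-1, which drives fatty acid synthesis and is an LXR target (chr11:60199089-60222581, minus strand). Its start-site region was at 92.4 in Control, 92.1 with IFNγ, 90.5 with PJ34 and 86.4 with both, with fold enrichments of 39.9, 32.4, 29.1 and 21.9. The annotation used gave 1 start site for Srebf1, so these values describe that start and not the start of any other transcript. A second strong region, centered 2.11 kb upstream, was at 84.1, 80.2, 81.6 and 76.1. The region that holds the repeat printed above, intronic by this annotation, was at 45.1, 44.0, 50.8 and 47.3 by its highest peak. The peak that covered the repeat itself was at 45.1 in Control, 41.2 with IFNγ and 9.0 with both. In PJ34 no peak covered the repeat. By their highest peaks, none of the 3 regions differed by 10 points in any comparison. The only other region, at the Rai1 promoter, was a weak peak of the PJ34 list (5.8).

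Srebf2 encodes SREBP-2, the main activator of sterol synthesis genes (chr15:82147181-82205379, plus strand). Its start-site region, chr15:82145460-82149188, was at 95.8 in Control, 96.2 with IFNγ, 97.3 with PJ34 and 78.7 with both. The fold enrichment there was 59.6, 47.8 and 50.1 in the first 3 lists and 18.1 in IFNγ+PJ34, and the length covered by peaks was 3568, 3202, 3369 and 2077 bp. The start site thus held 1 of the stronger peaks of the first 3 lists and a weaker, narrower one in IFNγ+PJ34. Both regions at the promoter of Ccdc134, about 20 kb upstream, also had their lowest rank there: one was at 84.3, 77.0, 72.4 and 45.6, and the other at 78.3, 77.9, 80.9 and 64.3. All 3 regions found in every list were lower in IFNγ+PJ34 by 10 points or more than in IFNγ and than in PJ34, with median shifts of -17.4 and -18.6. Of all regions near protein-coding genes, 20.9% and 30.6% were lower by that much, with medians of -0.0 and -3.0. For the start-site peaks of protein-coding genes the shares were 15.0% and 27%, with medians of -1.2 and -4.2. The lowest start-site rank was in IFNγ+PJ34 for 51.4% of the protein-coding genes with a start-site peak in every list. An intronic region centered 9.57 kb into the gene was at 36.8 in Control, 24.3 in IFNγ and 15.3 in PJ34 and had no peak in IFNγ+PJ34, and a weak region nearest to Shisa8 was found in IFNγ+PJ34 alone (21.9).

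Abca1 encodes the transporter that loads cholesterol onto lipid-poor apolipoprotein A-I (chr4:53030787-53159895, minus strand). Its start-site region, chr4:53157758-53161288, was at 89.2 in Control, 84.9 with IFNγ, 91.0 with PJ34 and 89.6 with both, with fold enrichments of 28.8, 16.4, 27.8 and 29.1. The rank thus lay between 84.9 and 91.0 in all 4 lists. The strongest region by rank lay 39.7 kb into the gene, in an intron, and was likewise even, at 91.2, 89.7, 90.2 and 91.0. In all, 10 of its 19 regions were found in every list. Near all protein-coding genes, 13363 of 21831 regions shared by IFNγ and Control were lower in IFNγ (median shift -2.2). At Abca1, 9 of the 10 regions were lower in IFNγ than in Control (median shift -5.6). The exception was an intronic region centered 10.3 kb into the gene, at 32.5 in Control, 69.0 with IFNγ, 57.6 with PJ34 and 27 with both, the only Abca1 region that was higher in IFNγ and lower again with PJ34. An upstream region, centered 27.7 kb before the start, was higher in both PJ34 lists, at 86.6 and 89.0 against 80.2 in Control and 73.9 in IFNγ. An intronic region at 25.9 kb was at 42.8 in Control and at 10.4, 0.9 and 9.0 in the other lists.

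Abcg1 encodes the transporter that moves cholesterol to high-density lipoprotein (chr17:31057675-31117988, plus strand). Its start-site region was at 85.4 in Control, 84.4 with IFNγ, 83.0 with PJ34 and 91.8 with both. Its fold enrichment was 29.5, 21.6, 20.0 and 20.9, so Control was highest on that scale and the list with both on the rank. The strongest region lay upstream, chr17:31036783-31041655, with its summit 18.7 kb before the start, and was at 85.7, 95.1, 91.3 and 99.5 in the same order. Its fold enrichment was 23.2 in Control, 34.1 with IFNγ, 28.5 with PJ34 and 54.3 with both, so the order of the lists was the same on both scales. Inside the gene, the region centered 16.7 kb from the start was at 19.9 in Control, 71.4 with IFNγ, 54.8 with PJ34 and 73.2 with both, and the length covered by peaks there was 526 bp in Control and 1463 to 1591 bp in the other lists. The adjoining region, centered at 18.1 kb, was at 36.8, 65.2, 67.4 and 73.6. Both of these intronic regions hold an LXR-type repeat, and both had their lowest rank in Control and their highest in IFNγ+PJ34. Of the 7 Abcg1 regions found in both PJ34 and IFNγ+PJ34, 7 were higher in IFNγ+PJ34 (median shift 8.7), against 8106 of 20642 regions and a median of -3.0 near all protein-coding genes. Between IFNγ and IFNγ+PJ34 the largest shift was at a weak intronic region, centered at 9.91 kb, which was at 29.9 and 0.5. The 3 regions farthest upstream were nearest to Umodl1, and the strongest of them was at 47.2, 34.3, 54.8 and 55.4.

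Apoe encodes apolipoprotein E, which macrophages secrete and which accepts exported cholesterol (chr7:19696109-19699188, minus strand). Its start-site region, chr7:19697879-19701640, was at percentile 78.1 in Control, 4.5 with IFNγ, 54.8 with PJ34 and 58.4 with both. The fold enrichment there was 18.3, 3.01, 6.01 and 6.86, and the length covered by peaks 3722, 253, 2145 and 2727 bp. Only a narrow, low peak was thus listed in IFNγ at a start site that was well marked in Control, and both PJ34 lists lay between. This shift of -73.5 between IFNγ and Control was the largest of any member region, and the shift of 53.9 between IFNγ+PJ34 and IFNγ the largest in the opposite direction. Low ranks in IFNγ extended over the cluster of apolipoprotein genes downstream of Apoe. The region in Apoc2, the cofactor of lipoprotein lipase, was at 67.7 in Control, 17.0 with IFNγ, 56.3 with PJ34 and 9.0 with both. The region between Apoe and Apoc1 that holds the repeat was found in Control alone (62.7), as was a region at the Apoc1 start (32.5), and 7 of the 16 regions were found in Control alone in all. One of the 3 regions nearest to Apoc4, centered 14.0 kb downstream of the Apoe start, was at 79.0 in Control, 48.6 in PJ34 and 67.8 in IFNγ+PJ34 and had no peak in IFNγ.

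The outer regions of the Apoe locus differed from that pattern in size or in order. The strongest, nearest to Clptm1 and centered 30.9 kb downstream, was at 92.8, 85.6, 89.6 and 95.7. It was thus also lowest in IFNγ, by a smaller shift of -7.3 against Control. Both Tomm40 promoter regions were lowest in IFNγ+PJ34, at 69.6 and 63.6 against 76.8 to 88.7 in the other lists. A region at the Nectin2 promoter was at 58.9 in Control, 70.2 with IFNγ, 80.1 with PJ34 and 35.5 with both. Of the 8 genes Apoe had the widest range of start-site rank, 73.5 points. Among 10463 genes with a start-site peak in every list, those whose 4 ranks were closest to the Apoe ranks were Decr1 (64.6, 4.5, 52.9 and 54.3 in the same order, summed absolute difference 19.5), Slc46a1 (20.2) and Dlg2 (20.5). Slc46a1 encodes a folate transporter and Decr1 an enzyme of fatty acid oxidation.

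To show the DNA at a pair of starts that had a peak in every list and differed between them, the 200 bases before the first base of Apoe and Srebf2 are printed on the gene's strand, with the same stretch of Abca1, whose rank was even across the lists. The capitals mark a match to any of the 6 motifs searched.
Apoe (chr7:19699189-19699388, minus strand): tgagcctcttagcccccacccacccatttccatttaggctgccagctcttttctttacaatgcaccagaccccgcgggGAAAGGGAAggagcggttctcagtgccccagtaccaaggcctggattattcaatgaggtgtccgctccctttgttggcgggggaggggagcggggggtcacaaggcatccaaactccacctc
Srebf2 (chr15:82146981-82147180, plus strand): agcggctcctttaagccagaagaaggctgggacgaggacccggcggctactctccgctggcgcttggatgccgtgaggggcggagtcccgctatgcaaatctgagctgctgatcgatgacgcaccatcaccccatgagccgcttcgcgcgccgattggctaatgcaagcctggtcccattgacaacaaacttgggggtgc
Abca1 (chr4:53159896-53160095, minus strand): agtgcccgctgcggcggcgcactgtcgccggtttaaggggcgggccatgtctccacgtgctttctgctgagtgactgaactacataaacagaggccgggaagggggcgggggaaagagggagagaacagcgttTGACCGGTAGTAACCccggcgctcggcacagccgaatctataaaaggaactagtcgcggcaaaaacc
The Apoe stretch holds a match to the ISRE core GAAANNGAA, the element bound by interferon-activated factors, the Abca1 stretch holds the LXR-type repeat, and the Srebf2 stretch holds no match to these 6 motifs.

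Lpl encodes lipoprotein lipase, which releases fatty acids from triglyceride-rich lipoproteins (chr8:68880491-68907448, plus strand). Its start-site region, chr8:68879609-68886896, was at percentile 93.7 in Control, 76.0 with IFNγ, 83.5 with PJ34 and 83.5 with both, with fold enrichments of 42.2, 14.1, 22.6 and 21.6. Control was thus the highest of the 4, and IFNγ the lowest. Ranked by peak width instead of score, the shift between IFNγ and Control at this start was -2.2 in place of -17.7. All 23 regions were nearest to Lpl itself, and 14 of them were found in Control alone, with percentiles of 4.0 to 36.8, so they were weak peaks. Control held 22 of the 23 regions, against 7 with IFNγ, 9 with PJ34 and 7 with both. Of all 43131 regions near protein-coding genes, the lists held 31036, 25946, 29225 and 27563 in the same order. Downstream of the gene, a region centered at 30.7 kb was at 59.7 in Control, 10.4 with IFNγ, 58.9 with PJ34 and 15.6 with both, and was low in both lists with IFNγ. Another, at 34.5 kb, was at 78.3, 34.3, 48.6 and 55.4. A region in the last part of the gene, at 23.3 kb, had the opposite order for IFNγ and Control, at 26.9 in Control, 58.4 with IFNγ, 0.9 with PJ34 and 15.6 with both.

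The length covered by peaks within 50 kb of Lpl was 29.5 kb in Control, 9.79 kb in IFNγ, 17.5 kb in PJ34 and 10.2 kb in IFNγ+PJ34, and around Apoe it was 21.9, 8.40, 14.0 and 11.3 kb. The log2 ratio of IFNγ to Control was -1.59 for Lpl and -1.38 for Apoe, against a median of -0.26 over 15282 protein-coding genes with a peak in both lists. These ratios stood at percentiles 2.02 and 3.22 of all those genes. The other 6 genes had ratios of -0.43 to 0.08, with Ch25h the only positive one. The Control list covered more of the whole genome than the other lists did, and the part of this in the Lpl and Apoe values was not tested.

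**Figure D2:**
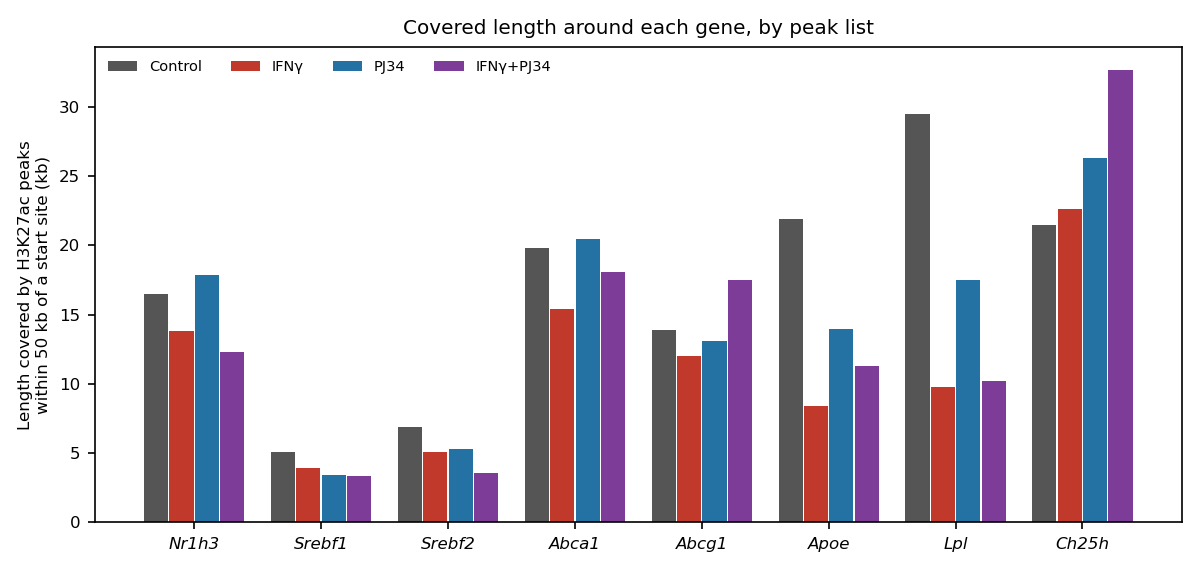
Length covered by H3K27ac peaks within 50 kb of a start site of each gene (vertical axis, kb), with 1 bar per peak list: Control, IFNγ, PJ34 and IFNγ+PJ34. Lpl is at 29.5 kb in Control and 9.79 kb in IFNγ and Apoe at 21.9 and 8.40 kb, while Ch25h is highest in IFNγ+PJ34 at 32.7 kb.

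Ch25h encodes cholesterol 25-hydroxylase, an interferon-inducible enzyme that makes the oxysterol 25-hydroxycholesterol (chr19:34473778-34475164, minus strand). Its start-site region, chr19:34474596-34475850, was at percentile 11.5 in Control, without a peak in IFNγ, at 25.3 in PJ34 and at 53.0 in IFNγ+PJ34, with fold enrichments of 3.06, 3.65 and 7.13 where listed. The start site was thus weakly marked where it was listed, and highest in IFNγ+PJ34. Stronger regions lay downstream. The region just past the gene, centered at 2.94 kb, was at 32.5 in Control, 62.1 with IFNγ, 61.9 with PJ34 and 78.2 with both, with fold enrichments of 3.45, 7.80, 7.17 and 16.9. The region at chr19:34434061-34436825, with its summit 39.4 kb from the start, had no peak in Control and was at 67.4 with IFNγ, 56.3 with PJ34 and 82.9 with both. A pair of regions at 33.2 and 29.9 kb were at 32.5 and 40.2 in Control and at 82.4 and 84.6 in IFNγ+PJ34, with IFNγ and PJ34 between 46.0 and 57.6. A weak region at 43.4 kb had no peak in Control and was at 17.0, 25.3 and 51.6 in the other lists.

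In IFNγ+PJ34, 17 of the 19 Ch25h regions had a peak, against 8 in Control, 9 in IFNγ and 13 in PJ34. Of all 43131 regions near protein-coding genes, 27563 had a peak in IFNγ+PJ34, 31036 in Control, 25946 in IFNγ and 29225 in PJ34. The covered length at Ch25h was 32.7 kb against 21.5, 22.6 and 26.3 kb. Its log2 ratio of IFNγ+PJ34 to IFNγ was 0.53 and to PJ34 0.31, at percentiles 88.0 and 82.9 of protein-coding genes with a peak in both lists. Of the 9 regions found in both IFNγ and IFNγ+PJ34, 9 were higher in IFNγ+PJ34, by a median of 16.2 points, against 10241 of 20618 regions and a median of -0.0 near all protein-coding genes. Of the 11 found in both PJ34 and IFNγ+PJ34, 10 were higher, by a median of 21.3 points, against 8106 of 20642 and -3.0. Over 10 other ways of counting and ranking, these medians lay between 15.0 and 32.3 and between 16.7 and 40.2. The locus also held 4 regions nearest to Lipa, the lysosomal acid lipase that frees cholesterol from esters. The largest of these, chr19:34510306-34528085, spans the Lipa start and was at 91.7 in Control, 94.8 with IFNγ, 90.5 with PJ34 and 98.4 with both.

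The windows of 200 bases around the summits of the strongest Abcg1 region upstream and the Ch25h region 39.4 kb downstream, on the plus strand, are printed with that of the Ch25h start-site region, because each of these regions had its highest rank in IFNγ+PJ34. Capitals mark a match to a searched motif.
Abcg1 upstream region (chr17:31038874-31039073, plus strand): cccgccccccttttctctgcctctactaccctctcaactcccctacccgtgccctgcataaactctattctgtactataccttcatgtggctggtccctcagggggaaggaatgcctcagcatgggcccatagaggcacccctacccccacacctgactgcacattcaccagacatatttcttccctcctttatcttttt
Ch25h downstream region (chr19:34435634-34435833, plus strand): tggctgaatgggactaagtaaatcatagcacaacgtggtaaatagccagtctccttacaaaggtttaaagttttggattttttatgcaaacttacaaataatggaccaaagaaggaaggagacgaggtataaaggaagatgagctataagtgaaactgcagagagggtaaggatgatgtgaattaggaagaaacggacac
Ch25h start-site region (chr19:34475364-34475563, plus strand): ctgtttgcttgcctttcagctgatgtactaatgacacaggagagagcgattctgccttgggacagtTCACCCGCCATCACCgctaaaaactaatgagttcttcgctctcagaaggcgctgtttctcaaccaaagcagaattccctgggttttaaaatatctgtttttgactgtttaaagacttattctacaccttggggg
The first pair hold no match to the 6 motifs, and the third holds the LXR-type repeat, seen here from the strand opposite to the one printed above.

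**Figure D3:**
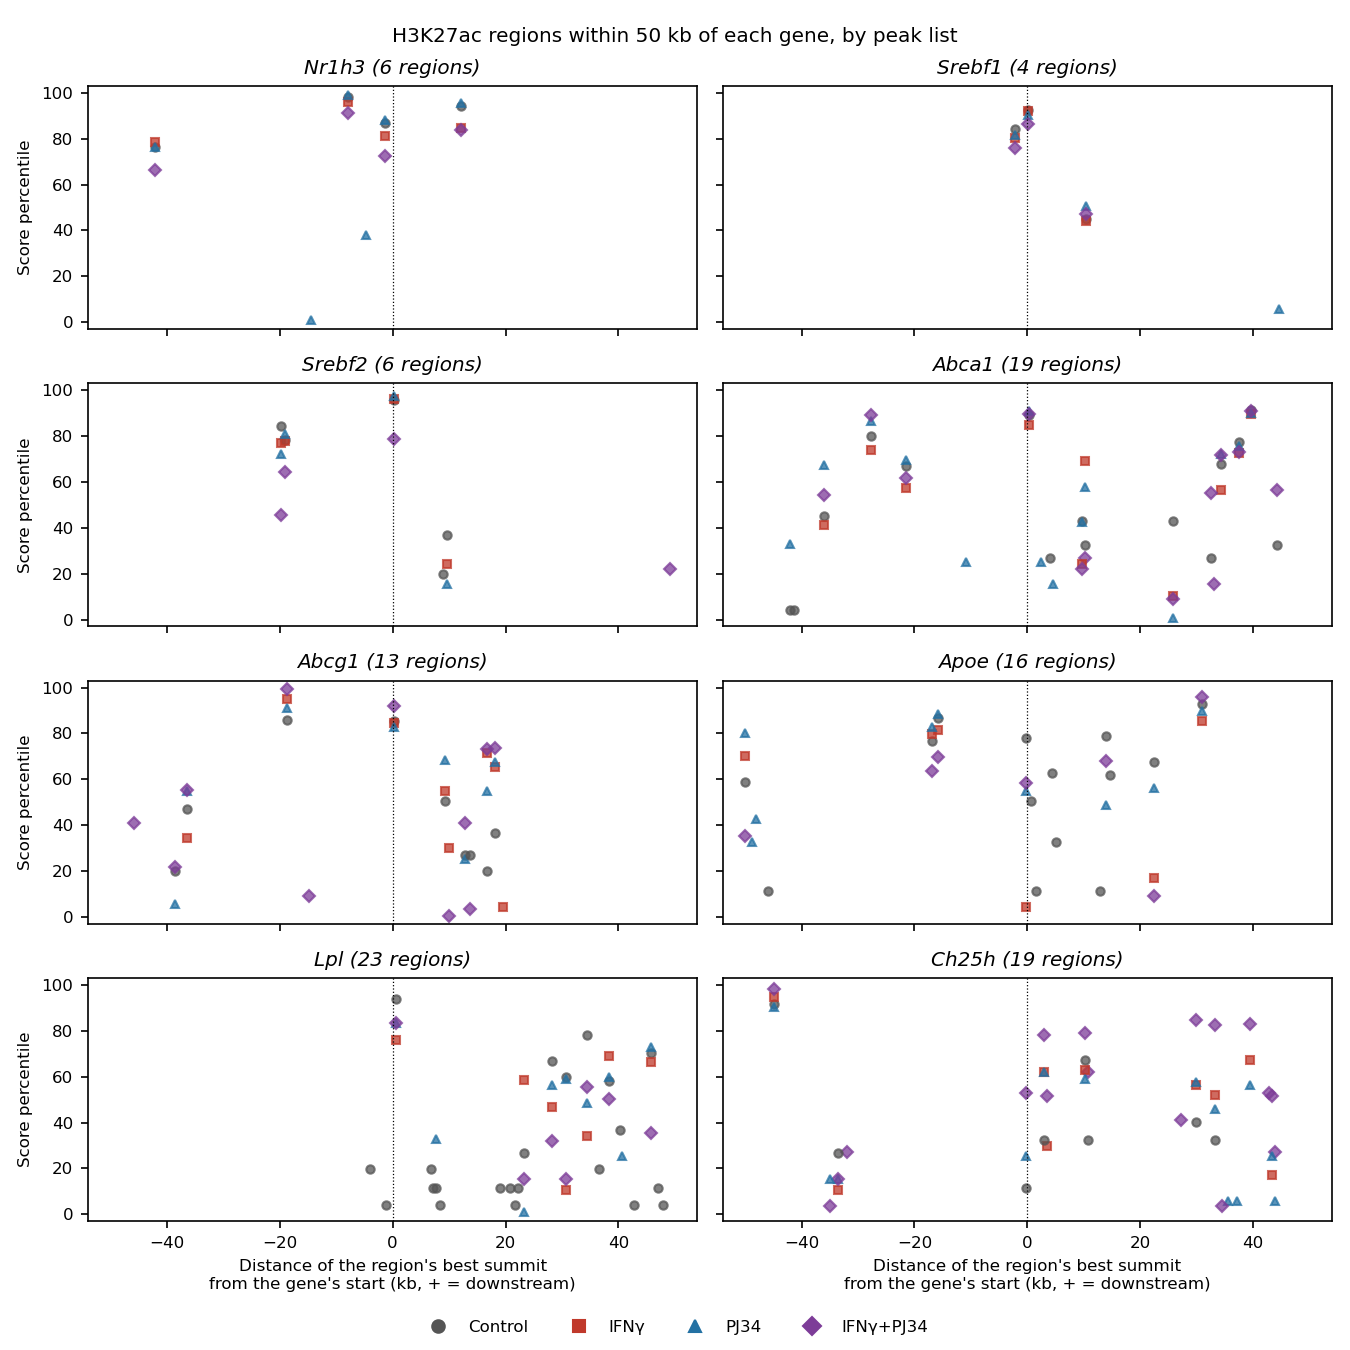
Score percentile (vertical axis) of each H3K27ac region within 50 kb of a start site, at the distance of its best summit from the start (horizontal axis, kb, downstream positive), in 8 panels of 1 gene each. Points are colored by peak list; at Ch25h, in each region downstream that IFNγ+PJ34 shares with another list, the IFNγ+PJ34 point is the highest, and at Lpl most of the points near the bottom are Control.

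Each of the 4 comparisons was then read over all member regions. Between IFNγ and Control, 5 of 51 IFNγ regions were absent from Control (9.80%, interval 3.26 to 21.4, against 15.9% of all regions), and these 5 lay at Abcg1 and Ch25h. Conversely, 34 of 80 Control regions were absent from IFNγ (42.5%, interval 31.5 to 54.1, against 29.7%), and 15 of these lay at Lpl and 8 at Apoe. With the higher-scoring 50% of each list, the first share was 22.9% against 11.9% of all regions and the second 25.0% against 21.6%, so the first then stood above the background and the second stood near it. Of the 46 regions found in both lists, 9 were higher by 10 points or more in IFNγ (19.6%, against 13.4%) and 12 were lower (26.1%, against 27.4%). The median shift was -3.9, against -2.2 for all regions. By gene, the median shift was 9.6 at Ch25h and 6.8 at Abcg1 and between -17.7 (Lpl) and -1.2 (Srebf1) at the other 6. The positive medians were not stable, since ranking by width gave -1.3 at Abcg1 and the higher-scoring 50% of each list gave -1.4 at Ch25h.

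Between PJ34 and Control, 15 of 67 PJ34 regions were absent from Control (22.4%, interval 13.1 to 34.2, against 19.1%), 6 of them at Ch25h. In turn, 28 of 80 Control regions were absent from PJ34 (35.0%, interval 24.7 to 46.5, against 23.8%), of which 14 lay at Lpl and 7 at Apoe. Of 52 shared regions, 12 were higher in PJ34 (23.1%, against 16.9%) and 12 were lower (23.1%, against 18.8%), with a median shift of 1.3 against 0.3. Fewer peaks at Lpl and Apoe than in Control were thus listed without IFNγ as well. The regions that shifted most were the Abcg1 intronic region at 16.7 kb (34.8 points higher in PJ34) and the Abca1 intronic region at 25.9 kb (-42.0).

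Between IFNγ+PJ34 and IFNγ, 18 of 66 IFNγ+PJ34 regions were absent from IFNγ (27.3%, interval 17.0 to 39.6, against 25.2%), 8 at Ch25h and 5 at Abcg1. In turn, 3 of 51 IFNγ regions were absent from IFNγ+PJ34 (5.88%, interval 1.23 to 16.2, against 20.5%), 2 at Abcg1 and 1 at Srebf2. With the higher-scoring 50% of each list this share was 17.1%, against 15.9% of all regions, so it no longer stood below the background. Of 48 shared regions, 14 were higher in IFNγ+PJ34 (29.2%, against 24.1%), 7 of them at Ch25h, and 13 were lower (27.1%, against 20.9%). The median shift was 2.6, against -0.0.

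Between IFNγ+PJ34 and PJ34, 14 of 66 IFNγ+PJ34 regions were absent from PJ34 (21.2%, interval 12.1 to 33.0, against 25.1%) and 15 of 67 PJ34 regions were absent from IFNγ+PJ34 (22.4%, interval 13.1 to 34.2, against 29.4%). Of 52 shared regions, 13 were higher in IFNγ+PJ34 (25.0%, against 20.0%), 8 of them at Ch25h and 3 at Abcg1, and 17 were lower (32.7%, against 30.6%). The median shift was -0.1, against -3.0 for all regions. The comparisons with Control share the Control list, and those with IFNγ+PJ34 share that list, so they are not independent of each other.

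**Figure D4:**
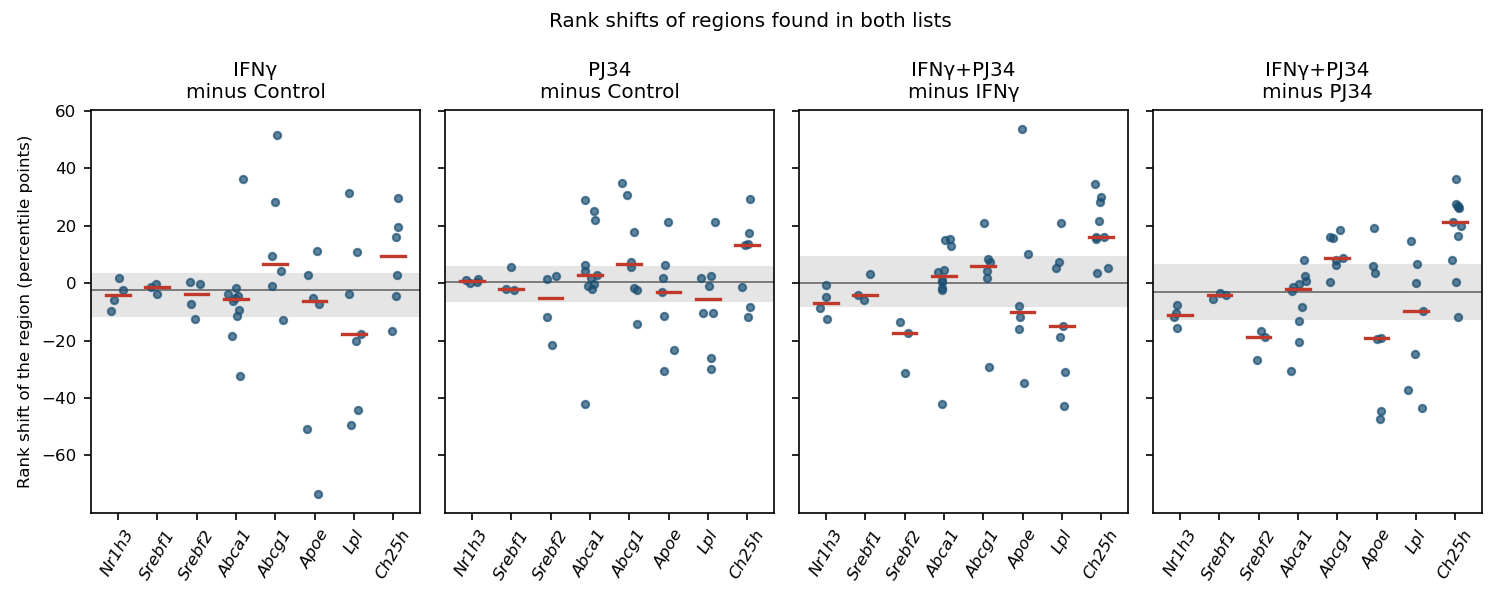
Rank shift of each member region found in both lists (vertical axis, percentile points), in 4 panels of 1 comparison each, with regions as points, the median of each gene as a red line, and the median and middle 50% of all regions near protein-coding genes as a gray line and band. Ch25h regions lie mostly above the band in the IFNγ+PJ34 comparisons (medians 16.2 and 21.3), and the lowest point, at -73.5, is the Apoe start-site region between IFNγ and Control.

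The other genes of the pathway were read at their start sites from 6 lists of lipid genes. The list of SREBP-2 targets of sterol synthesis and uptake held 21 genes, 19 of them with a start-site peak in every list. Between IFNγ+PJ34 and IFNγ, 8 of those 19 were lower by 10 points or more (15.0% of all protein-coding genes) and none was higher (9.84%), with a median shift of -8.4 against -1.2 for all genes. Between IFNγ+PJ34 and PJ34, 11 of 19 were lower (27% of all genes) and 1 was higher (5.80%), with a median of -12.3 against -4.2. Between IFNγ and Control, 1 of 20 was lower (14.6%) and none was higher (3.67%), and between PJ34 and Control none of 20 differed by 10 points. As at Srebf2, the list with both held the lowest rank of the 4 for 15 of the 19 (78.9%), against 51.4% of the 10463 protein-coding genes with a peak in every list. Sqle, squalene epoxidase, was at 84.6 in Control, 74.8 with IFNγ, 76.0 with PJ34 and 48.7 with both, and Lss, lanosterol synthase, at 52.1, 48.7, 50.8 and 27. Insig1, which holds SREBP in the endoplasmic reticulum, was at 99.2, 96.0, 90.8 and 99.3, among the few that were not lower in IFNγ+PJ34.

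Among 4 genes of SREBP processing, all with a peak in every list, none differed by 10 points between IFNγ and Control, and 2 were lower in IFNγ+PJ34 than in PJ34 (27% of all genes). Scap, the SREBP escort protein, was at 66.8, 62.9, 75.1 and 57.4. Of 10 genes of fatty acid synthesis, 6 had a peak in every list, and 3 of 7 were lower in IFNγ than in Control (14.6% of all genes) and 1 was higher (3.67%). Between PJ34 and Control 2 of 8 were lower (5.49%) and 1 was higher (6.63%), and in IFNγ+PJ34 2 of 6 were lower than in IFNγ (15.0%) and 3 of 6 lower than in PJ34 (27%). Scd2, a stearoyl-CoA desaturase, was at 72.5 in Control, 44.0 with IFNγ, 48.6 with PJ34 and 9.0 with both. Me1, malic enzyme, was at 59.7, 71.4 and 72.4 with no peak in IFNγ+PJ34, and Fads2, a desaturase of polyunsaturated fatty acids, was at 42.8 in Control and 15.3 in PJ34 alone.

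Of 11 LXR partners and other LXR targets, 9 had a peak in every list, and 4 of 9 were lower in IFNγ than in Control (14.6% of all genes) and none was higher (3.67%). In PJ34 2 of 9 were lower than in Control (5.49%), and in IFNγ+PJ34 2 of 9 were higher than in IFNγ (9.84%) and none was lower (15.0%). Mertk, a receptor for the uptake of dying cells, was at 80.8 in Control, 44.0 with IFNγ, 54.8 with PJ34 and 90.8 with both, the largest positive shift of any gene of the 6 lists between IFNγ+PJ34 and IFNγ. Pltp, phospholipid transfer protein, followed the same order, at 92.6, 71.0, 85.6 and 95.3. Among 16 genes of lipid uptake and storage, 14 had a peak in every list, and 1 or 2 genes passed the mark in each direction in every comparison, where 3.67% to 9.84% of all genes were higher and 5.49% to 27% lower. Of these, Olr1, a receptor for oxidized low-density lipoprotein, was at 11.5, 38.4 and 38.2 with no peak in IFNγ+PJ34, and Scarb1, the high-density lipoprotein receptor, was at 83.3, 73.9, 85.9 and 58.4. Of 5 genes of oxysterol metabolism and sensing, 4 had a peak in every list, and 2 of them were lower and 1 higher in IFNγ than in Control (14.6% and 3.67% of all genes). In PJ34 2 were lower than in Control (5.49%), and in IFNγ+PJ34 2 were higher than in IFNγ (9.84%) and 2 higher than in PJ34 (5.80%). Cyp27a1, sterol 27-hydroxylase, was at 88.3, 69.3, 77.1 and 93.3, and Hsd3b7, an enzyme of bile acid synthesis from oxysterols, at 66.3, 77.5, 63.8 and 78.5.

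**Figure D5:**
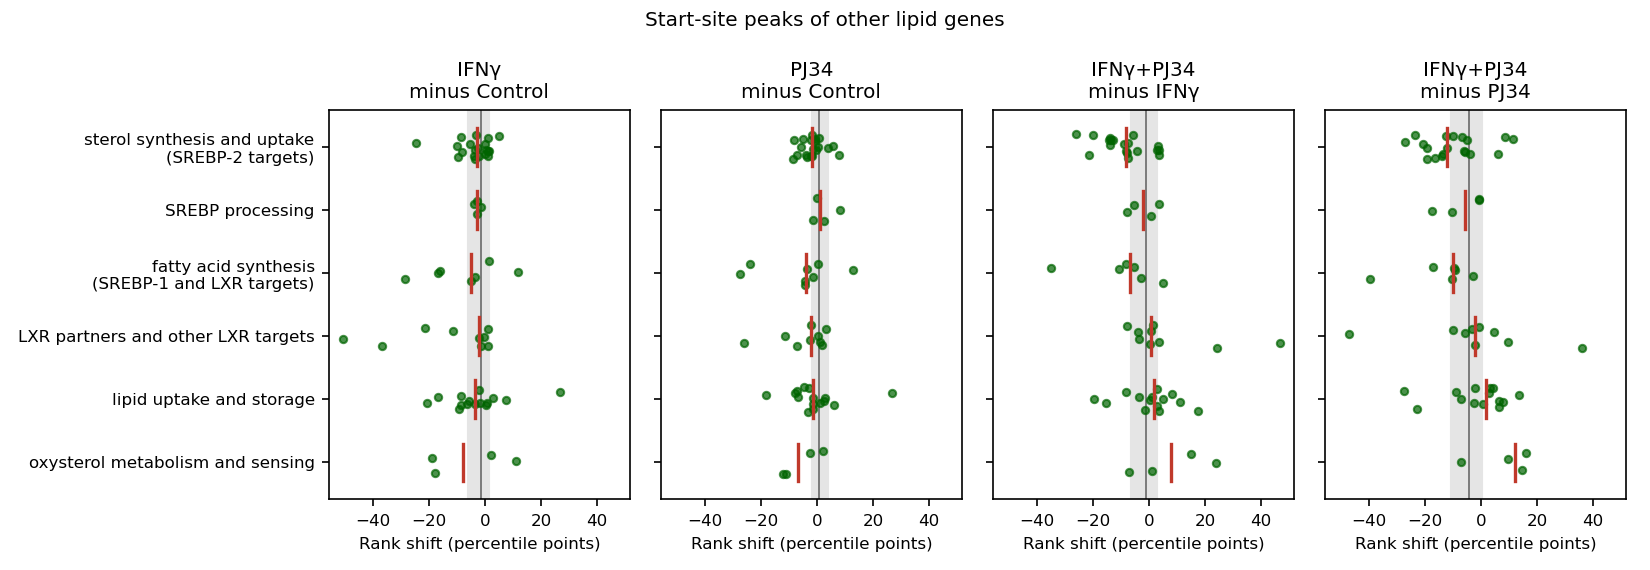
Rank shift of the start-site peak (horizontal axis, percentile points) of each gene of 6 lipid gene lists (vertical axis), in 4 panels of 1 comparison each, with the median of each list as a red line and the median and middle 50% of all protein-coding genes as a gray line and band. The SREBP-2 targets lie to the left in both comparisons with IFNγ+PJ34 (medians -8.4 and -12.3).

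To see what DNA the member regions share, 6 motifs were searched on both strands in windows of 300 bases around the best summit of every region. The LXR-type repeat was found in 4 of 106 member windows (3.77%, interval 1.04 to 9.38) and in 0.642% of all 43131 windows. Over whole regions it was found in 9 of 106 (8.49%), against 3.22% of all regions, and in the promoter windows of RefSeq (250 bases before to 50 after a start; 6 of the 8 genes had an entry) it was found in 2 of 11 member windows and 0.718% of 32851 in all. The share in member windows was thus above the background share, on 4 windows. The member genes include genes that LXRs raise, and the repeat was chosen as a site of LXRs. Genes and motif were thus not chosen independently, and no conclusion is drawn from the higher share. The sterol element TCACNCCAC was found in 0.943% of member windows and 0.978% of all, the GAS element TTCNNNGAA in 6.60% and 8.46%, the ISRE core GAAANNGAA in 5.66% and 9.56%, the PU.1 motif GAGGAAGT in 1.89% and 2.16%, and the AP-1 motif TGANTCA in 2.83% and 7.51%. For these 5 motifs the share of member windows was below the background share, on 1, 7, 6, 2 and 3 windows. Each interval held the background share: 0.0239 to 5.14 for the sterol element, 2.70 to 13.1 for GAS, 2.11 to 11.9 for ISRE, 0.229 to 6.65 for PU.1 and 0.587 to 8.05 for AP-1. Over whole regions it was above it for the sterol element (6.60% against 4.59%), GAS (34.9% against 29.6%) and ISRE (37.7% against 31.8%), and below it for PU.1 (8.49% against 11.7%) and AP-1 (24.5% against 28.7%). A GAS match and an ISRE match can overlap, and each was counted. These shares describe letters in the windows, and they were not tested.

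The rule of 50 kb set which regions were counted. Across the 8 genes the farthest region inside lay 41.2 kb (Nr1h3) to 49.6 kb (Apoe) from a start site, and the nearest outside lay 50.7 kb (Abca1 and Apoe) to 96.7 kb (Srebf2) away.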

How the data were processed

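The authors sequenced H3K27ac ChIP and input libraries, aligned them to mm10 with Bowtie, filtered with Samtools and Picard, called relaxed peaks in each replicate against input with MACS, and kept peaks found in both replicates; each of the 4 conditions has 1 such list. The deposited columns used are the authors' peak score (10 to 1000), the fold enrichment over local background (a ratio), and the −log10 p-value with its q-value counterpart, also −log10, both deposited by the authors; the last column is the summit offset. The score of a peak was ranked within its list. Files hold no read counts, so depth is unknown. The members and gene lists were chosen with earlier results of these data known.

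From the lists, peaks overlapping by at least 1 bp were merged into regions (pandas 2.3.3, numpy 2.4.6, Python 3.11.15). Regions were placed within 50 kb of the start sites of the GENCODE basic annotation on GRCm38, and start-site peaks within 1 kb. Peak ends lay within the chromosome lengths of this genome, and all 32851 RefSeq promoter windows were identical to it. Shares carry exact Clopper-Pearson intervals (SciPy 1.17.1), and figures were drawn with Matplotlib 3.10.9. Named were the 8 genes, for each the region at the start, the region of highest rank and the region of the largest shift in each comparison, genes nearest to a region, the 3 largest rises and falls in the lipid lists, and the 3 genes most like Apoe. Other genes and regions were chosen after their values were seen. Samples were grouped by their titles. No statistical test was possible with 1 list per condition. Alternatives were another distance, placement by summit, stricter lists, lists of equal size, another merging gap, ranking by fold, width or −log10 p, the comprehensive annotation, and motif search over whole regions. The steps were tested on simulated data.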

Additional observations from a re-analysis of the deposited data

Results flagged for a closer look

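Results were picked for a closer look where the difference with IFNγ went 1 way without PJ34 (IFNγ against Control) and the other way under PJ34 (IFNγ+PJ34 against PJ34), by 10 points or more on each side; with 1 list per condition, none of these differences between effects was tested. An intronic Abca1 region centered 10.3 kb into the gene shifted by 36.5 points without PJ34 and by -30.6 under it. The Nectin2 promoter region, near the edge of the Apoe locus, shifted by 11.3 and -44.6. Among the lipid lists the start-site peak of Mertk shifted by -36.8 and 36.0, and that of Cyp27a1 by -19.0 and 16.2. A further 4 member regions, 2 at Abca1 and 1 each at Abcg1 and Ch25h, had a peak in Control and in IFNγ+PJ34 and none in IFNγ or PJ34. They were 3.77% of the 106 member regions, near the 3.28% of all regions near protein-coding genes with this pattern.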

How the results depend on the processing

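For 15 values (5 shares of regions, 4 median rank shifts and 6 motif shares), 86 alternatives were computed: 74 gave a value inside the 95% interval of the reported share, or of the reported median by the order of the regions, and 12 fell outside. Of the 4 medians, that between IFNγ and Control had an interval that left out 0 (-7.3 to -0.3) and was negative in every alternative. The median of all regions near protein-coding genes, -2.2, lay inside that interval, so the negative sign was not particular to the member regions. The median of all regions was not computed for the alternatives. The other medians of the member regions lay near 0 and were not stable in sign: ranked by width, the median was -0.4 between PJ34 and Control (1.3) and -0.4 between IFNγ+PJ34 and IFNγ (2.6). With the higher-scoring 50% of each list, the share of IFNγ regions absent from Control was 22.9% (9.80% as reported; 11.9% of all regions in this setting), that of Control regions absent from IFNγ 25.0% (42.5%; 21.6%), that of IFNγ regions absent from IFNγ+PJ34 17.1% (5.88%; 15.9%), and the median shift between IFNγ and Control -7.5 (-3.9). With peaks merged within 1 kb, 64.0% of regions were found in all 4 lists (41.5%; 57.9% of all regions), 21.4% of Control regions were absent from IFNγ (19.3% of all) and 9.52% of PJ34 regions from Control (10.4% of all). In those 2 settings fewer regions, or longer ones, are counted by construction. Over whole regions in place of windows, the share with a match was 6.60% for the sterol element (4.59% of all regions), 34.9% for GAS (29.6%), 37.7% for ISRE (31.8%), 8.49% for PU.1 (11.7%) and 24.5% for AP-1 (28.7%), on longer sequence; the first 3 then stood above the background, not below it. Ranking by width altered start-site shifts: between PJ34 and Control Apoe was at -8.9 (-23.3 as reported), and between IFNγ and Control Abcg1 was at -23.0 (-1.0) and Lpl at -2.2 (-17.7); the cause was not tested. The ranking by −log10 p and the comprehensive annotation were chosen after seeing the data. No paired analysis was possible because the replicates of a condition had been joined into 1 list by the authors, so leaving out a replicate was not possible either.

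Absence from a list depends on the authors' threshold and on depth, which is unknown. The Control list was the broadest of the 4, and the Lpl peaks of Control were mostly low-scoring (median percentile 15.7), those of Apoe less so (62.7). The Apoe start-site shifts of -73.5 and 53.9 rest on a peak of the IFNγ list near its lowest score (11, where the lowest is 10).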
